A study of Gallus gallus with 21 samples.

Results

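The 85 genes described here encode the nuclear part of the machinery that makes most of a cell's ATP: the subunits and helper proteins of respiratory complexes I to IV and of ATP synthase. They were chosen by name from the 18631 genes of a retinal expression table, as every symbol that starts with NDUF, SDH followed by A to D, UQCR, ATP5, or COX followed by 4 to 8, with the W-linked ATP5A1W left out. The retinas came from wild-type White Leghorn chickens that were fitted at 3 days of age with lenses of -10 D, minus lenses that move the focus behind the retina and lead the eye to elongate and become myopic. RNA was sequenced from 7 libraries after 1 day of lens wear, 7 after 3 days and 7 after 6 days. All 3 groups wore lenses, and eyes without a lens are not analysed here, so longer wear cannot be told apart from greater age. Nothing in the labels ties a library to an individual bird, and the p-values below reflect only how these libraries vary, some of which may be technical.

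Complex I takes electrons from NADH and complex II takes them from succinate, complex III passes them from coenzyme Q to cytochrome c, and complex IV hands them to oxygen. Complexes I, III and IV pump protons across the inner mitochondrial membrane, and ATP synthase lets the protons flow back to drive ATP formation. Photoreceptors pack mitochondria into their inner segments and are among the largest consumers of ATP in the retina. The complexes other than complex II are built from both nuclear and mitochondrial genes, and the 13 subunits encoded by mitochondrial DNA are not analysed here.

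Values are CPM as deposited, read counts scaled to each library's total, less a constant of 0.0001 CPM that every value carried. The smallest frequent step of the values, taken as the worth of 1 read, was 0.0203 to 0.0324 CPM, which puts the libraries at 30.8 to 49.3 M reads. The listed genes took 30.7 to 31.2% of the CPM scale in day 1 libraries, 30.3 to 32.2% in day 3 libraries and 31.7 to 33.3% in day 6 libraries. In all, 77 of the 85 members had a mean of at least 1 CPM and were tested; ATP5S, ATP5SL, COX8A, NDUFA11, NDUFAF3, NDUFAF8, NDUFB7 and SDHAF1 did not reach it. Changes are log2 differences of CPM + 1 with their standard error, tested with limma over 11072 genes with Benjamini-Hochberg adjustment, and a gene was called at an adjusted p under 0.05. The added 1 CPM shrinks the changes of genes with low CPM, so sizes of change are not alike between genes of different levels. Of the retinal markers, rod marker genes summed to 384 to 515, 350 to 511 and 467 to 624 CPM on days 1, 3 and 6, and cone marker genes to at least 1467 CPM in every library. The summed pigment epithelium markers reached at most 11.3 CPM, microglial markers 8.36 CPM and skeletal muscle markers 0.22 CPM. Oligodendrocyte markers summed to 92.1 to 202 CPM and endothelium markers to 41.2 to 66.5 CPM. In bulk tissue, fewer cells of a type and less RNA per cell cannot be told apart.

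Few respiratory chain and ATP synthase transcripts were called over the first days of lens wear, and most calls were of higher levels after 6 days. Between day 1 and day 3, 1 of the 77 tested members rose and none fell by limma's test, with 9 members at an unadjusted p under 0.05. Over all tested genes 1.67% rose and 1.63% fell in that comparison. Between day 3 and day 6, 9 members rose and 1 fell, which is 11.7% of the members for the rise, beside 19.4% of all tested genes that rose and 3.44% that fell. Between day 1 and day 6, 14 members rose and none fell, or 18.2% of the members, beside 19.8% of all tested genes that rose and 4.46% that fell. The share of members that rose was thus near or under the share of all genes in both comparisons with day 6. In all, 19 members were called in at least 1 of the 3 comparisons and 58 in none. The same share over all tested genes was not counted, so the 19 cannot be set against it. A single limma F test over the 3 days called 22.1% of the members, beside 29.7% of all tested genes.

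The median member changed by 0.06 from day 1 to day 3, where the median of all tested genes was -0.00. It changed by 0.08 from day 3 to day 6, where the median of all tested genes was also 0.08. Over the whole interval from day 1 to day 6 the median member changed by 0.13 and the median gene by 0.08. In that comparison 62 of the 77 members had a positive value, beside 7663 of the 11072 tested genes. These comparisons share libraries, so their values are not independent of each other. Summed over the 85 members, the level was 880 to 1028 CPM on day 1, 887 to 1209 CPM on day 3 and 959 to 1126 CPM on day 6. Without the 5 members on chromosome Z, it was 821 to 918 CPM on day 1, 832 to 1087 CPM on day 3 and 903 to 1007 CPM on day 6. The ranges of the 3 days overlapped in both sums.

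**Figure D1:**
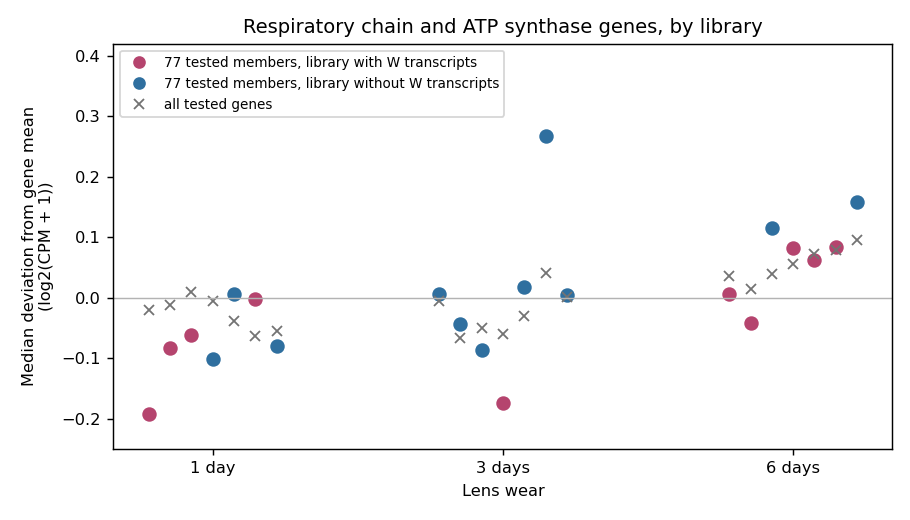
Median deviation of the 77 tested members (circles) and of all tested genes (crosses) from each gene's mean over 21 libraries, on the log2(CPM + 1) scale, for 7 libraries after 1, 3 and 6 days of lens wear; colour marks libraries with or without W-linked transcripts. Day 3 replicate 6 stands at 0.27, above every other library, while the other day 3 libraries lie between -0.17 and 0.02.

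One library stood highest. In day 3 replicate 6 the median member was 0.27 above its mean over all libraries, against 0.04 for the median of all tested genes in that library, and 63 of the 77 members were above their own mean. It was also the library with the fewest estimated reads, 30.8 M, and the part of this in its level was not tested. Without it, no member was called between day 1 and day 3, beside 3.19% of all tested genes. In that run 8 members had an unadjusted p under 0.05, and the median change was 0.01. From day 3 to day 6, 15 members then rose and 1 fell, beside 22.9% of all tested genes that rose, and from day 1 to day 6 the number that rose was 18, beside 21.2%. Without day 1 replicate 1 or without day 6 replicate 7, that number was 9, beside 17.5% and 16.6% of all tested genes. On the low side, the median member stood at -0.19 in day 1 replicate 1 and -0.17 in day 3 replicate 4. In each of these 12 of the 77 members were above their own mean. Without day 3 replicate 4, 1 member was called between day 1 and day 3, beside 3.24% of all tested genes. In that run 19 members had an unadjusted p under 0.05, and the median change was 0.09.

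The rise on day 6 also depended on how libraries were put on 1 scale. CPM relates each gene to the whole library, including reads outside the listed genes, and the median of all genes was 0.08 higher on day 6 than on day 3. With median-of-ratios scaling, which sets the median gene of each library equal, the median change of all tested genes came to 0.00 from day 3 to day 6 and the median member also to 0.00. Of the members, 1 then rose (NDUFS3) and 4 fell (ATP5I, COX7C, NDUFAF6 and UQCRC2), while 8.31% of all genes rose and 8.39% fell. From day 1 to day 6, 4 members rose under that scaling (ATP5O, NDUFB8, SDHA and UQCRC1) and NDUFAF6 fell, beside 8.13% of all genes that rose and 9.39% that fell. The median member was then 0.05 higher on day 6 than on day 1. The library codes of each day fall into a lower and a higher run of numbers, and the labels do not say what these mark. Set against the 4 day 1 libraries of lower numbers alone, 13 members were higher on day 6, beside 18% of all tested genes. Set against the 3 of higher numbers alone, 4 were higher (ATP5O, NDUFB8, NDUFS6 and SDHA), beside 12.4%.

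**Figure D2:**
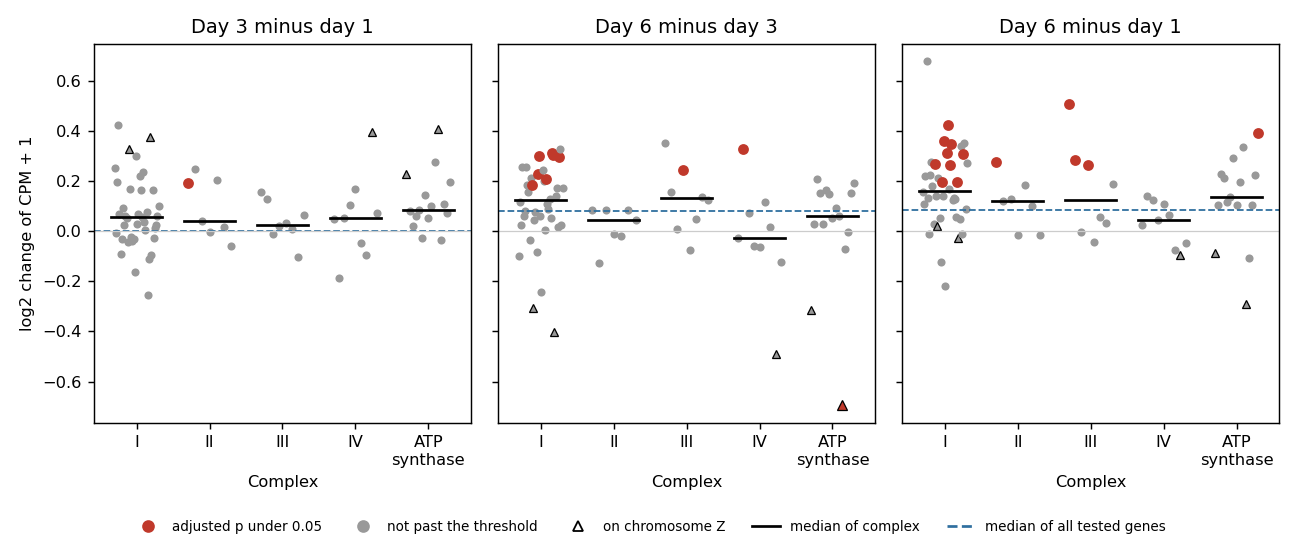
Log2 change of CPM + 1 for each of the 77 tested members, grouped by complex, for day 3 minus day 1, day 6 minus day 3 and day 6 minus day 1; red marks members with a limma adjusted p under 0.05, triangles mark members on chromosome Z, black bars are medians of a complex and the dashed line is the median of all tested genes. Red points appear once in the first comparison, for SDHA in complex II. Most of those in the 2 comparisons with day 6 lie in complex I, which holds 38 of the 77 tested members. Of these 38, 7 rose from day 3 to day 6, beside 19.4% of all tested genes, and 9 from day 1 to day 6, beside 19.8%.

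Complex I contributed 43 of the 85 members, of which 38 were tested. Its 7 nuclear core subunits, which carry the flavin, the iron-sulfur clusters and part of the coenzyme Q site, had median changes of 0.01 from day 1 to day 3 (4 of 7 values positive), 0.30 from day 3 to day 6 (7 of 7) and 0.13 from day 1 to day 6 (6 of 7). The medians of all tested genes were -0.00, 0.08 and 0.08. None of the 7 was called in the first comparison by limma, with 1 at an unadjusted p under 0.05. In the second, 3 rose, beside 19.4% of all tested genes, and in the third 2 rose, beside 19.8%. NDUFS3 and NDUFS8 were among those that rose in both comparisons with day 6.

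NDUFS3, a subunit of the arm that reaches into the matrix, lies on chromosome 5 from 23024959 to 23031267 (GRCg6a). It stood at 3.64, 4.22 and 4.69 CPM (lowest, median and highest of 7 libraries) on day 1, 3.25, 3.65 and 4.96 CPM on day 3 and 4.35, 4.91 and 5.47 CPM on day 6. All 7 day 6 libraries were above the day 3 mean, although these groups overlapped. The change from day 3 to day 6 was 0.30 ± 0.07 (limma adjusted p = 0.0041). From day 1 to day 6 the change was 0.19 ± 0.07 (limma adjusted p = 0.0443). That second call was lost on leaving out any 1 of 11 libraries, with adjusted p up to 0.0874: all those of days 1 and 6 other than day 1 replicates 2 and 4 and day 6 replicate 5.

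Tested as day 3 minus the mean of days 1 and 6, 3 members were called lower on day 3, beside 7.06% of all tested genes. Among them, NDUFS3 fell by 0.21 on the log2 scale (SE 0.06, limma adjusted p = 0.0356) and NDUFB1 fell by 0.23 (SE 0.07, limma adjusted p = 0.0461). The call on NDUFS3 was lost without any 1 of 8 libraries: day 1 replicate 2, day 3 replicates 2, 3, 5 and 7 and day 6 replicates 1, 4 and 6. The call on NDUFB1 was lost without any 1 of 16 libraries, all but day 1 replicates 2 and 4, day 3 replicates 3 and 6 and day 6 replicate 5.

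NDUFS8, which holds 2 iron-sulfur clusters that lead towards coenzyme Q, had 2.74, 2.87 and 3.61 CPM on day 1, 2.34, 3.41 and 3.76 CPM on day 3 and 2.77, 4.06 and 5.36 CPM on day 6. Its changes to day 6 were 0.30 ± 0.10 from day 3 (limma adjusted p = 0.0377) and 0.31 ± 0.10 from day 1 (limma adjusted p = 0.0304). The day 6 group overlapped both earlier groups, and 6 of its 7 libraries were above the means of each. The first call was lost without any 1 of 8 libraries (day 3 replicates 2 to 4 and day 6 replicates 1 and 4 to 7) and the second without any 1 of 7 (day 1 replicates 1, 4 and 5 and day 6 replicates 4 to 7). NDUFV1, which binds NADH and the flavin, was not called, at 0.35 ± 0.15 from day 1 to day 6 (limma adjusted p = 0.097). NDUFS1, the largest core subunit, had 36.9, 39.3 and 41.2 CPM on day 6 and 34.1, 35.6 and 36.8 CPM on day 1; these 2 groups did not overlap, yet the change was 0.13 ± 0.05 with a limma adjusted p of 0.0761. NDUFS1 overlaps INO80D on the same strand in the table, so reads could have been split between them and its value is uncertain.

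The accessory subunits surround this core and are needed for its stability and assembly. Of 25 tested, 2 rose from day 3 to day 6, beside 19.4% of all tested genes, and 6 from day 1 to day 6, beside 19.8%. Their median changes were 0.13 and 0.18, against 0.08 for all tested genes in both. Those that rose from day 1 to day 6 were NDUFB3, NDUFB4, NDUFB6, NDUFB8, NDUFB10 and NDUFAB1. The NDUFB proteins belong to the membrane arm, which pumps protons, and NDUFAB1 is the mitochondrial acyl carrier protein.

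NDUFB8 had 4.39, 6.67 and 7.05 CPM on day 6, against 3.22, 4.55 and 5.65 CPM on day 1, a change of 0.35 ± 0.09 (limma adjusted p = 0.0115). On day 6, 6 of 7 libraries were above the day 1 mean, and the groups overlapped. NDUFB6 had 3.36, 4.01 and 4.52 CPM on day 1, 3.16, 4.04 and 4.67 CPM on day 3 and 4.49, 5.00 and 5.23 CPM on day 6. All 7 day 6 libraries were above the means of both earlier days, and the groups overlapped. The changes of NDUFB6 to day 6 were 0.21 ± 0.07 from day 3 (limma adjusted p = 0.0394) and 0.26 ± 0.07 from day 1 (limma adjusted p = 0.0105), and the first of these was lost without any 1 of 9 libraries (day 3 replicates 3, 4, 5 and 7 and day 6 replicates 1 to 5).

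NDUFB4 changed by 0.42 ± 0.15 from day 1 to day 6 (limma adjusted p = 0.0415), NDUFB10 by 0.36 ± 0.12 (adjusted p = 0.0274) and NDUFB3 by 0.31 ± 0.10 (adjusted p = 0.0226). All 3 were above the day 1 mean in 7 of 7 day 6 libraries, and in all 3 the groups overlapped. The call on NDUFB4 was lost without any 1 of 9 libraries (day 1 replicates 1, 2, 3 and 7 and day 6 replicates 1, 3, 5, 6 and 7). That on NDUFB10 was lost without day 1 replicate 6 or day 6 replicate 5 or 7, and that on NDUFB3 without day 1 replicate 4 or day 6 replicate 5. NDUFAB1 was called at 0.27 ± 0.09 (limma adjusted p = 0.0297) and was lost without any 1 of 5 libraries (day 1 replicates 2, 6 and 7 and day 6 replicates 1 and 4). NDUFB1 and NDUFB6 were the accessory subunits that rose from day 3 to day 6. NDUFB1 had 13.8, 18.2 and 21 CPM on day 6, against 12.4, 14.4 and 16.9 CPM on day 3, a change of 0.30 ± 0.08 (limma adjusted p = 0.0123).

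Not all accessory subunits had positive values. NDUFB2 had 3.44, 4.04 and 4.37 CPM on day 6 and 3.72, 4.51 and 8.72 CPM on day 1, a difference of -0.22 ± 0.14 that was not called (limma adjusted p = 0.25). NDUFA9, which sits near the coenzyme Q site, differed by 0.03 ± 0.10 (limma adjusted p = 0.876). NDUFA13, also known as GRIM-19, varied most of all members: it had 2.77, 6.21 and 9.42 CPM on day 1, 3.42, 7.19 and 17.9 CPM on day 3 and 6.28, 8.47 and 17.6 CPM on day 6. Its change from day 1 to day 6 was the largest of any member, 0.68 ± 0.29, and was not called (limma adjusted p = 0.088). NDUFA13 was called higher when the level of the W-linked gene HINTW was a covariate, beside 21.7% of all tested genes that rose. With median-of-ratios scaling as well, a run chosen after seeing the data, it was again called higher, beside 9.51%. Its SD within days was 0.59 on the log2 scale, against a median of 0.18 over the members and 0.16 over all tested genes.

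Of the 6 tested complex I assembly factors, 2 rose from day 3 to day 6, beside 19.4% of all tested genes, and 1 from day 1 to day 6, beside 19.8%. NDUFAF7, a methyltransferase needed to build complex I, rose in both comparisons with day 6. It had 5.61, 6.10 and 7.35 CPM on day 1, 5.52, 6.16 and 6.69 CPM on day 3 and 6.46, 7.28 and 8.29 CPM on day 6. Its day 6 libraries were all above the means of both earlier days, by 0.23 ± 0.06 over day 3 (limma adjusted p = 0.00784) and 0.20 ± 0.06 over day 1 (limma adjusted p = 0.0172). The day 6 group overlapped both earlier groups. Both calls on NDUFAF7 were lost under median-of-ratios scaling. The call over day 1 was also lost with scaling to the total of listed genes and with either code number set of day 1 libraries alone. NDUFAF1, which helps build the membrane arm, was called from day 3 to day 6 at 0.18 ± 0.06 (limma adjusted p = 0.0263), a call lost without day 3 replicate 3 or day 6 replicate 2, 4 or 5. NDUFAF6 changed by -0.12 ± 0.05 from day 1 to day 6 (limma adjusted p = 0.0949).

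Complex II is the enzyme shared by the respiratory chain and the citrate cycle, and all of its subunits are nuclear. SDHA, its flavin-bearing catalytic subunit, was the 1 member called between day 1 and day 3. The gene lies on chromosome 2 from 85662886 to 85678802 (GRCg6a). It had 51.5, 54.8 and 58.3 CPM on day 1, 60.6, 62.6 and 65.2 CPM on day 3 and 58.7, 66.7 and 74.0 CPM on day 6. Day 1 overlapped neither later day, while days 3 and 6 overlapped each other. The change from day 1 to day 3 was 0.19 ± 0.05 (limma adjusted p = 0.034) and that from day 1 to day 6 was 0.28 ± 0.05 (limma adjusted p = 0.000636), each with 7 of 7 libraries above the day 1 mean. The first call was lost without any 1 of 9 libraries, day 1 replicates 1, 3, 4 and 7 and day 3 replicates 1, 2, 3, 6 and 7 (adjusted p up to 0.0693). It was also lost when the W-linked level was a covariate (adjusted p = 0.0744) and with the 3 day 1 libraries of higher code numbers as the only day 1 libraries (adjusted p = 0.21). The second held in each of these.

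The other subunits of complex II were not called. SDHB, the iron-sulfur subunit, had 9.96, 12.1 and 13.1 CPM on day 6 and 8.48, 10.7 and 11.8 CPM on day 1, a difference of 0.18 ± 0.08 (limma adjusted p = 0.118). The membrane anchors SDHC and SDHD differed by 0.10 ± 0.12 (limma adjusted p = 0.559) and -0.02 ± 0.06 (limma adjusted p = 0.862) over the same interval. The test of whether SDHA and its partner subunits changed by different amounts was not made.

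All 8 complex III members were tested; 1 rose from day 3 to day 6, beside 19.4% of all tested genes, and 3 rose from day 1 to day 6, beside 19.8%. UQCRC1, one of the large core proteins on the matrix side, had 10.3, 11.9 and 12.6 CPM on day 1, 10.1, 11.4 and 14.4 CPM on day 3 and 12.4, 13.9 and 15.8 CPM on day 6. Every day 6 library lay above the means of both earlier days, and the day 6 group overlapped both. The changes were 0.24 ± 0.07 from day 3 (limma adjusted p = 0.0157) and 0.26 ± 0.07 from day 1 (limma adjusted p = 0.0098), and neither was lost when any 1 library was left out. The call from day 3 was lost under median-of-ratios scaling. That from day 1 held under this scaling but was lost against the day 1 libraries of higher code numbers alone. UQCRC2, the other core protein, differed by -0.04 ± 0.05 from day 1 to day 6 (limma adjusted p = 0.586), and UQCRFS1, the Rieske iron-sulfur protein, by 0.06 ± 0.08 (limma adjusted p = 0.618).

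The small subunits UQCR10 and UQCR11 rose from day 1 to day 6. UQCR10 had 7.83, 11 and 15.6 CPM on day 6 and 5.97, 7.02 and 9.83 CPM on day 1. Its change of 0.51 ± 0.16 was the largest of the 14 called in that comparison (limma adjusted p = 0.0238), in 7 of 7 libraries and with overlapping groups. UQCR11 had 3.58, 4.45 and 5.05 CPM on day 6, against 2.36, 3.72 and 4.55 CPM on day 1, a change of 0.28 ± 0.09 (limma adjusted p = 0.0273). The call on UQCR10 was lost without day 1 replicate 1 or 2 or day 6 replicate 7, and that on UQCR11 without day 1 replicate 1 or 2 or day 6 replicate 5, 6 or 7.

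Complex IV had 1 call over the 3 comparisons, a count that cannot be ranked against complexes with other numbers of tested members. Of its 9 tested members 1 rose from day 3 to day 6, beside 19.4% of all tested genes that rose, and none was called from day 1 to day 6 by limma, beside 19.8% that rose, none of them at an unadjusted p under 0.05 either. Its median change was -0.03 from day 3 to day 6 and 0.04 from day 1 to day 6. COX4I1, the subunit through which ATP is known to slow the enzyme in mammals, had 26.5, 28.5 and 30.7 CPM on day 6 and 24.3, 28.9 and 31.9 CPM on day 1, a difference of 0.02 ± 0.08 (limma adjusted p = 0.851). COX6C differed by 0.04 ± 0.07 (limma adjusted p = 0.663). NDUFA4, first assigned to complex I and now placed in complex IV, differed by -0.05 ± 0.11 (limma adjusted p = 0.778). Whether complex IV differed from the other complexes was not tested.

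COX5A was the exception, with 0.859, 1.10 and 1.56 CPM on day 1, 0.603, 0.758 and 1.49 CPM on day 3 and 0.832, 1.35 and 1.79 CPM on day 6. It rose by 0.33 ± 0.10 from day 3 to day 6 (limma adjusted p = 0.0229), in 6 of 7 libraries relative to the day 3 mean, and the groups overlapped. The call was lost without day 6 replicate 1 (adjusted p = 0.0536). The table lists COX5A at a place that overlaps FAM219B on the same strand, so reads of these 2 genes could be split between them by the counting, and its value is uncertain. FAM219B itself differed by 0.08 in that comparison (limma adjusted p = 0.642).

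ATP synthase had 16 members, 15 of them tested, of which 1 fell from day 3 to day 6, beside 3.44% of all tested genes, and 1 rose from day 1 to day 6, beside 19.8%. ATP5O, the subunit that joins the catalytic head to the peripheral stalk and is also called OSCP, rose from day 1 to day 6. The gene lies on chromosome 1 from 106924124 to 106927542 (GRCg6a). It had 22.5, 25.3 and 26.2 CPM on day 1, 25.5, 27 and 35.7 CPM on day 3 and 29.5, 33.0 and 39.5 CPM on day 6. Days 6 and 1 did not overlap, and day 3 overlapped both. Its change from day 1 to day 6 was 0.39 ± 0.08 (limma adjusted p = 0.00103), and the call held without any 1 library and under median-of-ratios scaling. ATP5O, SDHA and NDUFS1 were the 3 members whose day 6 and day 1 groups did not overlap, beside 6.2% of all tested genes; from day 1 to day 3 this held for SDHA alone, beside 1.54%, and from day 3 to day 6 for no member, beside 5.76%.

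The catalytic beta subunit ATP5F1B had 38.3, 47.2 and 51.1 CPM on day 6 and 36, 42 and 45.5 CPM on day 1, a difference of 0.13 ± 0.08 that was not called (limma adjusted p = 0.209). The gamma subunit ATP5C1, the turning shaft of the head, differed by 0.11 ± 0.07 (limma adjusted p = 0.254). The genes ATP5G1, ATP5G2 and ATP5G3 encode the same mature subunit c, which forms the rotating ring in the membrane. They differed by 0.29 ± 0.11 (limma adjusted p = 0.051), 0.11 ± 0.10 (0.483) and 0.19 ± 0.17 (0.421) from day 1 to day 6. ATP5G2 overlaps ATF7 on the same strand in the table, and reads of near-identical parts of the 3 genes could have been split between them.

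**Figure D3:**
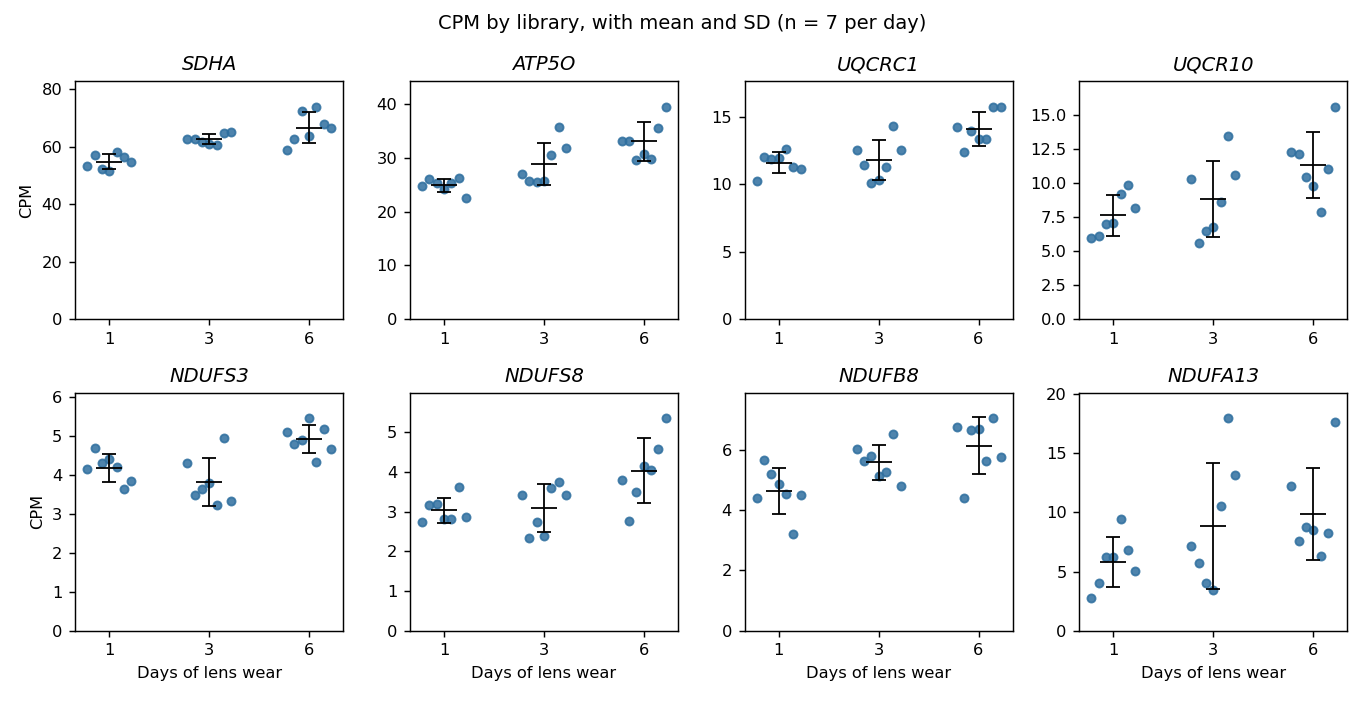
CPM in each of the 7 libraries after 1, 3 and 6 days of lens wear for 8 members, with the mean and SD as black bars; each panel has its own axis from 0. SDHA and ATP5O on day 6 lie above every day 1 library, UQCRC1, UQCR10, NDUFS3, NDUFS8 and NDUFB8 on day 6 overlap the earlier days, and NDUFA13 spreads from 2.77 to 17.9 CPM.

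Members on the Z chromosome followed a different split. In birds, females carry 1 Z and 1 W chromosome and males carry a pair of Z chromosomes, and most Z genes are not fully compensated. The labels give no sex, but 10 libraries held 101 to 147 CPM of the W-linked gene HINTW and the remaining 11 had 0.0243 to 0.598 CPM. Such W transcripts were present in 4 day 1 libraries, 1 day 3 library and 5 day 6 libraries, an uneven spread over the days. ATP5A1Z, ATP5I, COX7C, NDUFS4 and NDUFAF2 are the Z-linked members. All 5 were lower in libraries with W transcripts in a limma fit with day, beside 72.5% of 556 tested Z genes, 4.05% of all tested genes and 0.428% of tested genes on other chromosomes. Of the 72 tested members on other chromosomes none was called in that fit, and 7 had an unadjusted p under 0.05.

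ATP5A1Z encodes the alpha subunit of ATP synthase, which forms the catalytic head with the beta subunit. It had 25.3, 31.2 and 36.8 CPM (lowest, median and highest) in the 10 libraries with W transcripts, against 46.9, 55.4 and 64.4 CPM in the 11 without. The means were 31.2 ± 3.46 CPM with W transcripts and 55.8 ± 5.32 CPM without (SD, n = 10 and n = 11), or 55.9%, and the 2 sets did not overlap (limma adjusted p = 7.5e-10). The W-linked copy ATP5A1W had 15.1 to 19.6 CPM where W transcripts were present and 0 to 0.0999 CPM where they were not. The 2 copies together came to 40.4 to 56.4 CPM, mean 48.9 ± 4.5, in libraries with W transcripts and to 46.9 to 64.4 CPM, mean 55.8 ± 5.33, in libraries without. These summed ranges overlapped, and reads of the near-identical copies could have been split between them by the authors' counting.

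The other 4 Z-linked members were split in the same way. ATP5I, the e subunit that helps ATP synthase form dimers, averaged 10.3 ± 1.36 CPM with W transcripts and 19.4 ± 2.31 CPM without. COX7C of complex IV averaged 8.32 ± 0.894 CPM with and 15.4 ± 1.78 CPM without. NDUFS4, an accessory subunit of complex I whose loss in mice gives a Leigh-like disease, averaged 8.96 ± 0.857 CPM with and 16.9 ± 1.73 CPM without. NDUFAF2, a complex I assembly factor, averaged 2.13 ± 0.295 CPM with and 3.83 ± 0.597 CPM without. In each of the 4 the libraries with W transcripts stood at 53.1 to 55.5% of those without, and the 2 sets did not overlap. Limma adjusted p-values lay between 2.2e-09 for NDUFS4 and 5.1e-06 for NDUFAF2.

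**Figure D4:**
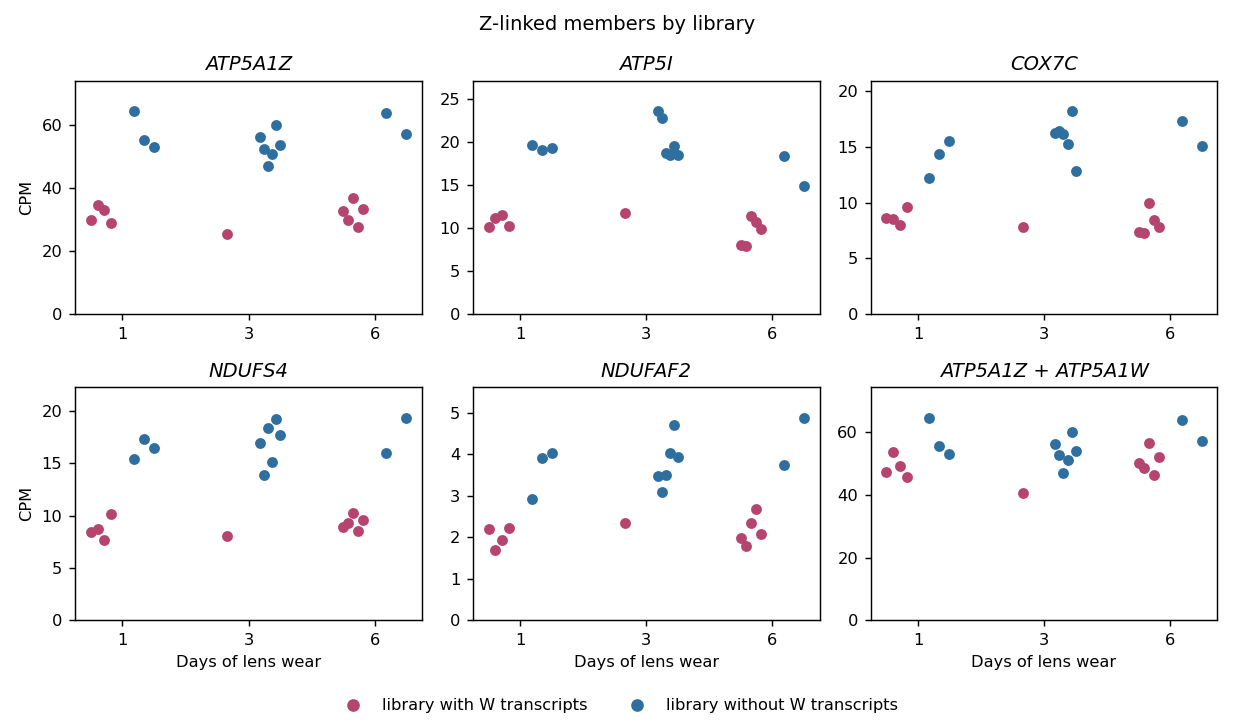
CPM of the 5 Z-linked members and of the sum of ATP5A1Z and ATP5A1W in each library after 1, 3 and 6 days of lens wear, with libraries that held W transcripts drawn left of those that did not; each panel has its own axis from 0. For the 5 Z-linked members the 2 kinds of library form separate bands within every day, at 25.3 to 36.8 and 46.9 to 64.4 CPM for ATP5A1Z, while the summed copies overlap.

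The changes of Z-linked members over time moved with this split. ATP5I was the 1 member that fell from day 3 to day 6, with 7.92, 10.8 and 18.4 CPM on day 6 and 11.7, 18.7 and 23.6 CPM on day 3, and overlapping groups. It fell by 0.69 on the log2 scale (SE 0.19, limma adjusted p = 0.0128), but when the W-linked level was a covariate the difference was -0.22 ± 0.09 (limma adjusted p = 0.0909). It was also the 1 member called higher on day 3 than the mean of days 1 and 6, by 0.55 (limma adjusted p = 0.0424), beside 1.38% of all tested genes, and this call too was lost with the covariate, as well as without any 1 of 15 libraries, all but day 1 replicates 4, 5 and 7, day 3 replicate 4 and day 6 replicates 3 and 7. ATP5A1Z changed sign with the covariate: its difference from day 3 to day 6 was -0.31 ± 0.22 without the covariate (limma adjusted p = 0.309) and 0.25 ± 0.08 with it (limma adjusted p = 0.0306). With the covariate 12 members rose from day 3 to day 6, beside 17.5% of all tested genes, and 18 rose from day 1 to day 6, beside 21.7%. The median member then changed by 0.02 from day 1 to day 3, 0.14 from day 3 to day 6 and 0.15 from day 1 to day 6. The medians of all tested genes were -0.00, 0.08 and 0.09. The results for ATP5I and ATP5A1Z differed again with median-of-ratios scaling and the covariate together, a run chosen after seeing the data. ATP5I was then called lower on day 6 than on day 3 and than on day 1, and ATP5A1Z was not called. Of all tested genes 17.3% and 20.7% were called in either direction in these 2 comparisons.

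Over all 3 days together, limma's F test called 17 of the 77 members, or 22.1%, beside 29.7% of all tested genes. The lowest adjusted p-values in that test were those of SDHA (0.00122), ATP5O (0.00248), NDUFS3 (0.00735) and NDUFAF7 (0.00936). Without day 6 replicate 4 or without day 6 replicate 7, 11 members were called in it, beside 25.9% and 25.6% of all tested genes.

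The members share some features that bear on their measurement. Their genes are short, with a median span of 3355 bases from start to stop in the table, against 19924.5 bases for all tested genes, and 81 of the 85 spans were under that median. For 24 members the span overlaps another listed gene, 6 on the same strand and 18 on the other. Besides COX5A, ATP5G2 and NDUFS1 on the same strand, the members named above with a partner on the other strand were SDHA (CCDC127), ATP5O (LOC107055362), NDUFB1 (CPSF2), NDUFAF7 (PRKD3), SDHD (IL18), NDUFB2 (2 partners) and NDUFB10, UQCR11 and UQCRC2, whose partners averaged at most 0.24 CPM. The library kit keeps strand, but the sources used here do not say whether the counting used it, so reads of such pairs may not have been told apart. None of CCDC127, CPSF2 and PRKD3 was called in either comparison with day 6. LOC107055362 was called from day 3 to day 6, at 0.33 (limma adjusted p = 0.0193), and IL18 from day 1 to day 6, at 0.33 (limma adjusted p = 0.0133). Both partners of NDUFB2 were called from day 1 to day 6, at 0.17 (limma adjusted p = 0.00551) and 0.26 (limma adjusted p = 0.0102), where NDUFB2 itself was not.

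Genes around the chain were counted from lists, and their counts stand beside the 19.4% of all tested genes that rose from day 3 to day 6 and the 19.8% that rose from day 1 to day 6. Of 26 tested assembly factors outside the symbol rule, 6 rose in the first of these comparisons and 10 in the second, and none fell. None was called from day 1 to day 3 by limma, with 1 at an unadjusted p under 0.05. Under median-of-ratios scaling, where 8.31% and 8.13% of all genes rose, 1 rose and 1 fell from day 3 to day 6 and 2 rose from day 1 to day 6. ACAD9, for complex I, rose by 0.36 from day 1 to day 6 (limma adjusted p = 0.00216) and was called under both scalings. COX10, needed to build complex IV, rose by 0.35 from day 3 to day 6 (limma adjusted p = 0.00788) and was also called under both. COX20, likewise for complex IV, rose by 0.34 in that comparison (limma adjusted p = 0.00447), and this call was lost under median-of-ratios scaling (adjusted p = 0.051). HIGD1A of complex IV rose by 0.31 from day 1 to day 6 (limma adjusted p = 0.0113), and its call was lost too (adjusted p = 0.0641).

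Of 7 tested carriers and chain genes outside the rule, ETFA, GPD2 and ATPIF1 were called higher on day 6 than on day 3, and all 3 calls were lost under median-of-ratios scaling (adjusted p = 0.18, 0.227 and 0.0751). None of the 7 was called in the other comparisons by limma, with 2 at an unadjusted p under 0.05 from day 1 to day 3 and 1 from day 1 to day 6. Of 10 tested coenzyme Q synthesis genes, 3 rose from day 3 to day 6 and 4 from day 1 to day 6, against 1 and 2 under median-of-ratios scaling. COQ2 (0.46 from day 1 to day 6, limma adjusted p = 0.0119) and COQ9 (0.36, 0.0117) were called under both scalings.

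Of 17 tested genes of pyruvate dehydrogenase and the citrate cycle, 5 rose from day 3 to day 6 and 3 from day 1 to day 6. OGDH fell between days 1 and 3 by 0.43 on the log2 scale (limma adjusted p = 0.0394), beside 1.63% of all tested genes that fell. It rose by 0.48 from day 3 to day 6 (limma adjusted p = 0.00584) and differed by 0.04 from day 1 to day 6 (limma adjusted p = 0.81). Under median-of-ratios scaling 5 rose from day 3 to day 6 and 2 from day 1 to day 6. In the first of these 1 also fell, beside 8.39% of all genes. FH, fumarase, which acts on the product of complex II, rose by 0.30 from day 3 to day 6 (limma adjusted p = 0.000863). MDH2, which makes mitochondrial NADH, rose by 0.40 from day 3 (limma adjusted p = 0.00202) and by 0.44 from day 1 (limma adjusted p = 0.00074). FH and MDH2 were called under both scalings.

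Of 17 tested genes of mitochondrial biogenesis and mitochondrial DNA expression, 1 rose from day 3 to day 6 and 4 from day 1 to day 6. Under median-of-ratios scaling 1 and 3 rose, and 1 also fell from day 3 to day 6, beside 8.39% of all genes. SLIRP fell from day 1 to day 3 (-0.28, limma adjusted p = 0.0319), beside 1.63% of all tested genes that fell, and rose from day 3 to day 6 (0.32, 0.00376). From day 1 to day 6, ESRRB (0.74, limma adjusted p = 0.00101), ESRRG (0.27, 0.00469), MTERF3 (0.25, 0.0132) and POLRMT (0.32, 0.0178) rose, and the call on MTERF3 was lost under median-of-ratios scaling (adjusted p = 0.0664). The orphan nuclear receptors ESRRB and ESRRG belong to a family that activates respiratory genes in mammals.

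Photoreceptor transcripts moved over the same days. The marker counts stand beside the 1.67% of all tested genes that rose and 1.63% that fell from day 1 to day 3. The shares were 19.4% and 3.44% from day 3 to day 6, and 19.8% and 4.46% from day 1 to day 6. Of 8 tested rod markers 5 rose from day 1 to day 3, 3 from day 3 to day 6 and 6 from day 1 to day 6, with a median of 0.72 in the last comparison, and none fell. Of 12 tested cone markers 1 rose and 3 fell from day 1 to day 3, 6 rose and 1 fell from day 3 to day 6, and 4 rose and 3 fell from day 1 to day 6. The cone medians were -0.15, 0.32 and 0.08. Of the other retinal neurons, 1 of 5 horizontal and 1 of 9 ganglion cell markers fell from day 1 to day 3. From day 3 to day 6, 1 horizontal and 2 ganglion cell markers rose, and of 4 bipolar cell markers 1 rose and 1 fell. From day 1 to day 6, 1 of 6 amacrine cell markers fell by limma's test, with 4 of the 6 at an unadjusted p under 0.05. No bipolar, horizontal or ganglion cell marker was called in it, with 1 bipolar and 1 ganglion cell marker at an unadjusted p under 0.05. These counts depended on the scaling. Under median-of-ratios scaling 3 of 4 bipolar, 4 of 6 amacrine and 1 of 9 ganglion cell markers fell from day 1 to day 6. Of all genes 9.39% then fell. In that run 6 rod markers rose, and 3 cone markers rose and 3 fell. None of 4 tested Muller glia markers was called in any of the 3 comparisons, none of them at an unadjusted p under 0.05 either. The part of these cell types in the values of the respiratory chain was not tested.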

How the data were processed

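Total RNA from 21 retinas was sequenced with a stranded, ribosome-depleted library kit, per the labels' protocols. STAR and Partek were used with GRCg6a, per the submitters' processing notes; the sources used here give no versions, annotation or counting settings. The deposited values are CPM made by the authors, 1 column per library, with 0.0001 added to each value, which was subtracted. Multiples of the smallest step that were whole within 0.1 made up 94.5 to 95.6% of low values, so whole reads were not claimed and no count test was run. The precision at low CPM is limited by reads worth 0.0203 to 0.0324 CPM.

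Genes averaging 1 CPM or more over the libraries were fitted on log2(CPM + 1) with limma 3.58.1 in R 4.3.3 (lmFit, contrasts.fit, eBayes), 1 mean per day over 21 libraries, 18 residual degrees of freedom and Benjamini-Hochberg adjustment over 11072 genes, at 0.05. A further fit held the log2 level of HINTW, and a library above 10 CPM of HINTW was taken to hold W transcripts. The fit was tested on simulated data with independent errors for each gene and library. These data held no shift of whole libraries and no W-linked split, so that test does not bear on either. The pseudocount, the filter on low values, the scaling, covariates from the label codes, subsets of day 1 and each library left out were varied.

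The members and gene lists were chosen with earlier results of these data known. Values are given for the 8 largest called changes in each direction and comparison, for subunits fixed by role, for Z-linked members and for up to 4 genes per other list; NDUFA13, NDUFB2, NDUFAF6, NDUFAF1, NDUFAB1 and the overlapping genes were partly chosen after their values were seen. Chromosome assignments came from symbols shared with a RefSeq gene table (GRCg7b). Sequences were not used here. One member is not reported here by name.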

Additional observations from a re-analysis of the deposited data

Results flagged for a closer look

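Dixon's test of the highest and lowest library was applied to 114 groups of 7 libraries, and 6 values stood beyond its critical value; chance gives about 1 in 20 groups. Of these, 2 were low values of day 3 replicate 4, the 1 day 3 library with W transcripts: 25.3 CPM for ATP5A1Z, where the other 6 libraries had 46.9 to 59.9 CPM, and 11.7 CPM for ATP5I, where the others had 18.4 to 23.6 CPM. The other 4 were high values of day 3 replicate 6, the library in which the members stood highest: 52.0 CPM for ATP5F1B (others 35.2 to 41.5 CPM), 37.1 CPM for NDUFA9 (24.8 to 29.3 CPM), 45.2 CPM for NDUFS1 (33.2 to 38.2 CPM) and 16.5 CPM for SDHB (10.7 to 12.2 CPM).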

How the results depend on the processing

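From day 1 to day 3, 1 member was called, beside 3.31% of all tested genes called in either direction. That number became 0 once the W-linked level was a covariate (3.82%) and 0 with day 1 libraries of higher code numbers only (4.76%). From day 3 to day 6, the 10 called members (beside 22.8% of all tested genes called in either direction) became 6 with a minimum mean of 5 CPM (28.8%), 5 with median-of-ratios scaling (16.7%), 6 with scaling to the listed genes (17%) and 6 with median-of-ratios scaling and the W-linked level (17.3%), an alternative chosen after seeing the data. From day 1 to day 6, the 14 called (24.3% of all tested genes) became 9 with the 5 CPM minimum (30.4%), 5 with median-of-ratios scaling (17.5%), 5 with scaling to the listed genes (17.5%) and 4 with day 1 libraries of higher code numbers only (13.6%). The 4 members called for day 3 against both ends (8.44%) became 2 with no filter (4.21%), 1 with median-of-ratios scaling (6.91%), 2 with scaling to the listed genes (6.86%), 1 with the W-linked level (9.00%), 2 with day 1 libraries of lower (9.91%) or of higher code numbers only (12.1%) and 1 with both median-of-ratios scaling and the W-linked level (8.58%). The 17 called by the F test (29.7%) became 11 with no filter (17.2%), 6 with median-of-ratios scaling (23.3%), 7 with scaling to the listed genes (23.6%), 11 with day 1 libraries of higher code numbers only (29.7%) and 7 with both median-of-ratios scaling and the W-linked level (25.6%). The share of all genes called thus moved with the setting as well. Leaving out each library gave 0 to 1, 7 to 16, 9 to 18, 0 to 5 and 11 to 22 calls in these 5 tests, and the median member change ranged over 0.01 to 0.09, 0.06 to 0.13, 0.11 to 0.16 and -0.05 to 0.02 in the first 4. All 4 calls lost at 5 CPM from day 3 to day 6, and all 5 from day 1 to day 6, were of members with a mean under 5 CPM, which that minimum leaves out; the cause of the other drops was not tested. No called change of a named member reversed its sign in any alternative run. Of 27 such calls, 27 held with either other pseudocount, 21 with no filter, 8 with median-of-ratios scaling, 13 with scaling to the listed genes, 21 with the W-linked level, 13 with day 1 libraries of higher code numbers only and 458 of 567 when each library was left out. No paired analysis was possible because the groups share no code numbers in the labels. The depth is an estimate from the steps of the CPM values, so no counting intervals are given.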
